A study of Zea mays with 6 samples.

Results

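Milkweed pod1 (mwp1) is a KANADI gene of maize, and its transcript was followed here in laser-microdissected cells of 3 regions of the vegetative shoot apex. It was found by its identifier, GRMZM2G082264, and is 1 of the 39656 genes in the deposited table of read counts. With a mean of at least 2 RPM (reads-per-million, relative to the uniquely aligned reads of each library) in at least 1 region, it is also 1 of the 17993 genes that entered the tests.

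The libraries come from the abaxial (lower, outward-facing) side of leaf primordia P2 and P3, from the adaxial (upper, meristem-facing) side of the same primordia, and from the center zone of the shoot apex. P2 and P3 follow the youngest primordium in age. All plants were wild-type seedlings of the inbred B73, 14 days old and untreated, and cells were cut from sections of 8 µm. Each region has 2 libraries, which the study describes as biological replicates pooled from several apices each, so no value belongs to a single plant.

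KANADI proteins are transcription factors of the GARP (G2-like) class that specify abaxial identity in lateral organs. In Arabidopsis they act against adaxial factors, among them the HD-ZIP III proteins and the LOB-domain protein AS2, and the boundary between both territories is where the blade grows out. In maize, mwp1 was identified through a recessive mutation whose leaf sheaths carry patches of adaxial identity and outgrowths on the abaxial side.

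In the B73 RefGen_V3 coordinates of the table, mwp1 lies on chromosome 7, positions 107233099 to 107239726, on the minus strand, a span of 6628 bp. No other gene of the table overlaps it. The nearest neighbors are Ann10 (GRMZM2G067752), 234 kb before it, and GRMZM2G439448, 221 kb after it. Ann10, with the symbol of an annexin, had 54.3 and 62.1 RPM in the abaxial libraries, 61.9 and 43.5 RPM in the adaxial ones and 94.8 and 111.9 RPM in the center zone. GRMZM2G439448 had no count in any library. Counting used uniquely aligned reads, so reads shared with a near-identical copy did not enter the mwp1 values.

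Library depth ran between 14718269 counted reads in abaxial replicate 1 and 25898155 counted reads in adaxial replicate 2. Both abaxial libraries were the shallowest, which limits their precision and not that of the other 4. Known regional genes followed the labels in part. IG1, a maize LOB-domain gene of the AS2 type, had 9.7 and 10.9 RPM in the abaxial libraries against 201.0 and 181.8 RPM in the adaxial ones. The meristem gene kn1 had 2.7 and 1.2 RPM in abaxial and 9.9 and 2.4 RPM in adaxial libraries, against 1109.9 and 971.1 RPM in the center zone. The HD-ZIP III gene rld1, an adaxial gene, differed little, with 384.0 and 374.9 RPM in the abaxial libraries and 475.1 and 470.6 RPM in the adaxial ones (not called).

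Transcripts of mwp1 were abundant on the abaxial side and scarce elsewhere. The abaxial libraries held 788 counts in replicate 1 and 890 counts in replicate 2, or 51.4 and 55.3 RPM. The adaxial libraries, although deeper, held 54 and 41 counts, or 2.2 and 1.5 RPM. The center zone libraries held 106 and 12 counts, or 4.4 and 0.5 RPM. Both abaxial libraries lay far above the other 4, the adaxial pair was low in both replicates, and only the center zone pair was split, with replicate 1 above and replicate 2 below both adaxial libraries. Within the abaxial libraries, mwp1 lay above 74.9% and 76.4% of the tested genes. In the other 4 libraries it lay above 3.77% to 13.1% of them. In such pooled captures, fewer cells that transcribe the gene and less RNA per cell cannot be told apart.

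**Figure D1:**
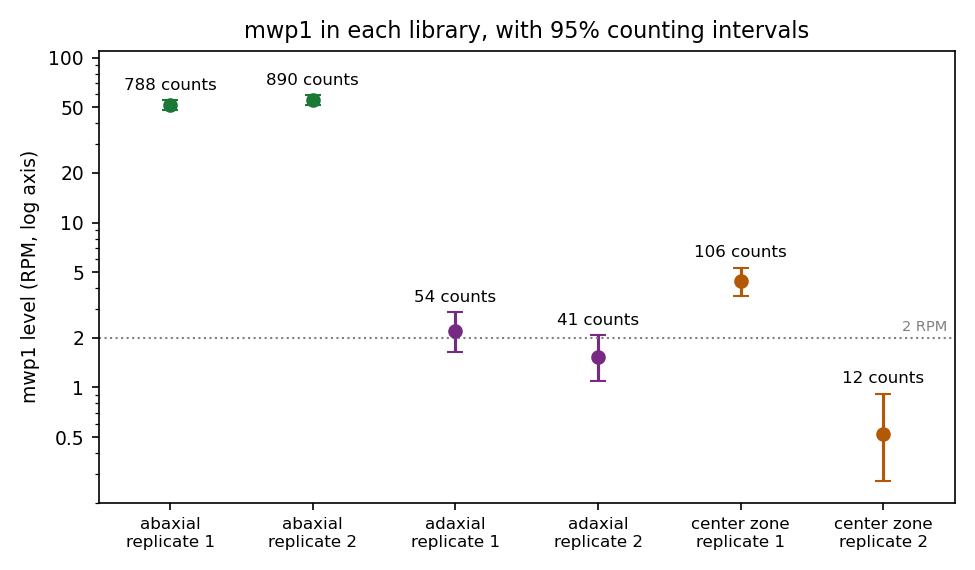
Level of mwp1 in RPM (log axis) in each of the 6 libraries, with 95% exact Poisson intervals of its counts as bars and the count above each point. The 788 and 890 counts of the abaxial libraries correspond to 51.4 and 55.3 RPM, all other libraries lie at or under 4.4 RPM, and the intervals of both center zone libraries do not overlap.

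Counting error does not reach across this gap. The 95% exact Poisson (Garwood) intervals of mwp1 were 47.9 to 55.1 and 51.7 to 59.1 RPM in the abaxial libraries, and 1.65 to 2.87 and 1.09 to 2.07 RPM in the adaxial ones. In the center zone they were 3.6 to 5.32 RPM in replicate 1 and 0.271 to 0.915 RPM in replicate 2. These intervals cover counting error only, since reads of amplified RNA are not independent molecules.

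By region, mwp1 averaged 53.35 ± 2.76 RPM on the abaxial side, 1.85 ± 0.495 RPM on the adaxial side and 2.45 ± 2.76 RPM in the center zone (SD, n = 2 each). The order was therefore abaxial, then center zone, then adaxial. The last 2 regions in this order did not differ beyond their spread.

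For the comparison of the leaf sides, the mean abaxial level of mwp1 was 28.8 times the mean adaxial level. Across the pairs of 1 abaxial and 1 adaxial library, the ratio lay between 23.4 and 36.9. The fitted log2 fold change, abaxial over adaxial, was 4.80 (standard error 0.931). It did not pass the threshold of an adjusted p under 0.01 (adjusted p = 0.298, unadjusted p = 0.0036, edgeR's quasi-likelihood test with Benjamini-Hochberg adjustment over all tested genes). In this comparison 0.0723% of the tested genes passed, 13 in all. The exact two-sided permutation test of 2 against 2 libraries cannot go below p = 0.333, which is the value mwp1 reached. Against the other 4 libraries together the abaxial pair reached p = 0.0667, the smallest possible in that exact test.

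Both center zone libraries enter this test through the shared estimate of the spread. By edgeR's gene-wise dispersion, which the quasi-likelihood test does not itself use, the biological coefficient of variation of mwp1 was 58.0% with all 6 libraries. The value common to the tested genes was 30.5%. In a fit of the 4 leaf libraries alone, that of mwp1 was 17.6%. That fit gave mwp1 the same log2 fold change of 4.80, a standard error of 0.249 and an adjusted p of 0.00019 from edgeR, where 0.417% of genes passed. Leaving out center zone replicate 1 alone gave an adjusted p of 0.000366 from edgeR, and leaving out center zone replicate 2 alone gave 0.000361, with 0.339% and 0.367% of genes passing. DESeq2 with all 6 libraries called it as well (log2 fold change 4.79, adjusted p = 1.58e-08), with 1.08% of genes passing. The size of the difference between the leaf sides thus stayed the same in these fits, while the call of mwp1 did not.

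Genes of similar level give a measure of how far this ratio stands out. The mean of mwp1 over all 6 libraries was 19.22 RPM, and 6851 tested genes, mwp1 included, had a mean within 2-fold of it (9.61 to 38.4 RPM). Of these, none had a larger log2 fold change toward the abaxial side than mwp1. The median of the other genes was 0.0126, their 99th percentile was 1.04 and their maximum was 4.73, so that most genes of this level lay close to equal on both sides. Of these other genes, 7 exceeded a log2 fold change of 3 toward the abaxial side. The mean over all 6 libraries also admits genes that were high in the center zone and near 0 in the leaf, and these are among the genes at the lower end. Over all 17993 tested genes, the rank of mwp1 was 7.

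Several of the genes nearest to mwp1 in this ranking carry the symbols of transcription factors. GRMZM2G070865, which has no symbol, followed at 4.73. Among genes with a symbol, GLK47, whose symbol places it in the G2-like class to which KANADI proteins belong, stood at 4.02, and the YABBY genes YAB11 and YAB5 at 3.75 and 3.51. Next with a symbol was gln2, a glutamine synthetase gene, at 3.20. At the other end, the genes with a symbol were wox9B, gst12, BM1, WRKY45 and RR3, none of them called. Of these, wox9B, BM1, WRKY45 and RR3 were in the window through the center zone, with 30.7 to 104.1 RPM there and at most 7 counts in either abaxial library, so they were not at the level of mwp1 in the leaf. The value of gst12 rested on 1 library, with 0.3 and 0.6 RPM in the abaxial libraries against 51.1 and 0.3 RPM in the adaxial ones. The position of mwp1 at the top depended on single leaf libraries: its rank was 7 without adaxial replicate 1, 14 without adaxial replicate 2, 2 without abaxial replicate 2 and 1 without abaxial replicate 1.

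**Figure D2:**
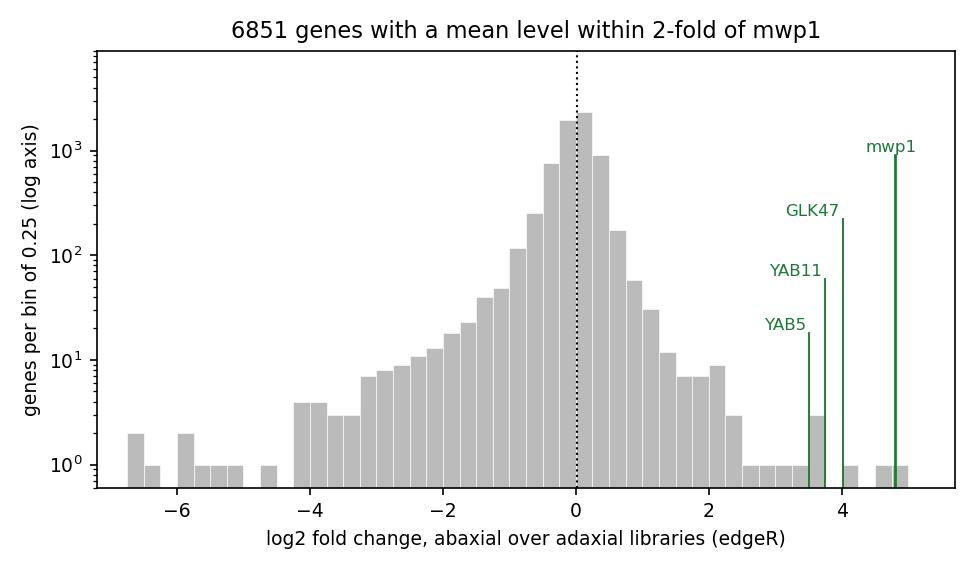
Distribution of the log2 fold change, abaxial over adaxial, for the 6851 genes with a mean RPM within 2-fold of mwp1 (gene number on a log axis, dotted line at the median). Green lines mark mwp1 at 4.80, GLK47 at 4.02, YAB11 at 3.75 and YAB5 at 3.51, and the median lies near 0.

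A stricter description sets the lower abaxial library against the highest of the other 4, after adding 1 RPM. For mwp1 this gap was 9.7-fold, at rank 6 of the tested genes. A gap above 1-fold was found for 1465 genes (8.14%), and 17 genes exceeded a log2 gap of 2. Besides mwp1, kan1 and kan3 were among these 17 genes, as were GLK47, YAB5, YAB11 and gln2. This measure was chosen after the values had been seen.

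Against the center zone, the mean abaxial level of mwp1 was 21.8 times the center zone level, but the ratio of single libraries ran between 11.7 and 111. The log2 fold change, abaxial over center zone, was 4.55 (standard error 0.917), with an adjusted p of 0.0222 from edgeR that misses the threshold of 0.01. In this comparison 10.6% of the tested genes passed. DESeq2 called mwp1 here (4.57, adjusted p = 5.41e-09), as it did 26.9% of the tested genes. The size of this difference rested on single libraries: without center zone replicate 1 it was 6.73 (adjusted p = 5.73e-05, 19.2% of genes passing), and without center zone replicate 2 it was 3.75 (adjusted p = 0.000411, 7.94% of genes passing). Abaxial transcripts were thus above the center zone against either library, by unequal amounts.

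Between the adaxial side and the center zone no direction could be given for mwp1. The mean adaxial level was 0.755 times that of the center zone, and the log2 fold change was -0.24 (standard error 0.866, adjusted p = 0.853 from edgeR), where 12% of the tested genes passed. Without center zone replicate 1 the adaxial side was called higher, at 1.94 (adjusted p = 0.00622, 20.9% of genes passing). Without center zone replicate 2 the log2 fold change was -1.05 (adjusted p = 0.0356, 8.15% of genes passing). The sign of this comparison depended on which center zone library was used.

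**Figure D3:**
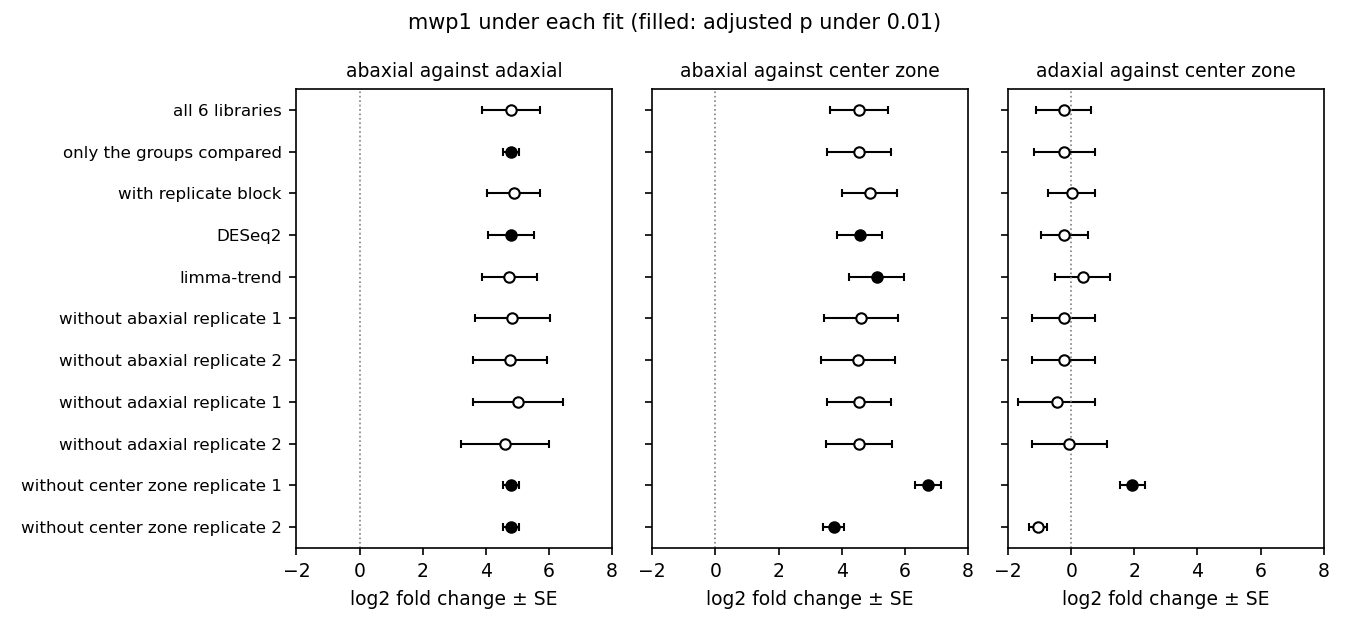
Fitted log2 fold change of mwp1 ± standard error in 3 comparisons (panels) under 11 fits (rows), with filled points for an adjusted p under 0.01. Between the leaf sides the value stays at 4.61 to 5.01 and the error bars shorten once a center zone library or both are left out, whereas the adaxial side against the center zone changes sign between 1.94 and -1.05.

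The center zone counts of mwp1 bear on how purely that region was captured, since KANADI genes are known as genes of the abaxial side of lateral organs. Counts of mwp1 in center zone replicate 1 were 8.4 times those in replicate 2 after scaling to depth (95% interval 4.61 to 16.8). An exact binomial test gave p = 4.79e-19, which compares these 2 libraries and not conditions, and which takes amplified reads as independent. By the same measure, replicate 1 over replicate 2 was 0.929 (0.843 to 1.02) on the abaxial side and 1.44 (0.943 to 2.22) on the adaxial side. Replicates of both leaf sides therefore lay within counting error of each other, and those of the center zone did not.

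A split of this size was uncommon, although not rare, among genes of that level. Of the 2508 tested genes with a center zone mean within 2-fold of that of mwp1, 245 (9.77%) differed more between the center zone libraries in either direction. The median gene of this group was itself higher in replicate 1, by 0.44 on the log2(RPM + 1) scale.

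Expressed as a share of its mean abaxial level, mwp1 reached 4.12% in adaxial replicate 1 (counting interval 3.1% to 5.38%) and 2.81% in adaxial replicate 2 (2.05% to 3.88%). In the center zone the shares were 8.25% (6.75% to 9.97%) in replicate 1 and 0.937% (0.507% to 1.71%) in replicate 2. The second center zone library thus held less mwp1 than either adaxial library, and the first held more than both.

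Other genes with high leaf levels gave different shares. The KANADI gene kan1 stood at 6.82% of its abaxial mean in both center zone libraries, from 21 and 20 counts. For kan3 the share was 1.31% in replicate 1, taken from an RPM value rounded to 0.2 (6 counts). In replicate 2, 0 counts were found, where 3 counts would have been 0.131 RPM. YABBY genes, which mark leaf primordia in maize, ranged in replicate 1 between 1.76% for yab14 and 25.7% for yabby15, leaving out YAB3 and YAB6 with abaxial means of 3.65 and 1.75 RPM. In replicate 2 these genes ranged between 1.6% for YAB5 and 9.57% for yab9. Within 1 center zone library the share thus differed from gene to gene. Against the YABBY genes kept, mwp1 lay inside the range in replicate 1 and below it in replicate 2. YAB3 and YAB6 had 0 counts and 1 count in replicate 2. These are too few to place their shares above or below that of mwp1 there.

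Higher levels in center zone replicate 1 were also found for other genes, and 54.6% of all tested genes were higher there. Of the 8 tested YABBY genes, 6 were higher in replicate 1 than in replicate 2, YAB3 and YAB6 included, with yab9 and yab14 as the exceptions. So were 3 of the 4 tested epidermal HD-ZIP IV genes, all of IG1, ial1 and rs2, and both tested genes of the leaf margin list. The first center zone library also had more tested genes at 2 RPM or above, 17159 against 16136 in the second. A set of 40 genes, mwp1 included, had an abaxial mean within 2-fold of that of mwp1 and a center zone mean of at most 10% of the gene's own abaxial mean, and this set was drawn after the values had been seen. Of these, 35 (87.5%) were higher in replicate 1, beside the median excess of 0.44 (log2) among genes at the center zone level of mwp1, with a median of 7.97% of the abaxial level there against 2.99% in replicate 2. A ratio of replicate 1 to replicate 2 at least as large as that of mwp1 was reached by 5 of the 40, mwp1 itself counted. The Dof gene DOF22 is on a list of vascular genes that was drawn by symbol alone, so its members need not be vascular. DOF22 was split in the same direction, with 24.7 RPM in the first and 0.8 RPM in the second center zone library. Unlike mwp1, it was also split between the adaxial libraries, with 13.9 and 2.8 RPM. On the same list, dof2, dof3 and DOF10 were higher in the first center zone library, at no more than 2.3 RPM. DOF36 went the other way, with 0.4 and 0.8 RPM. The 5 genes of that list summed to 5.6 and 6.9 RPM in the abaxial libraries and 15.5 and 4.0 RPM in the adaxial ones. In the center zone they summed to 29.0 and 1.9 RPM, the first value coming mostly from DOF22. Of the 5, 4 stayed under the level needed for a test. The part of leaf or vascular cells in the mwp1 counts of the center zone was not tested, and transcription in center zone cells cannot be told apart from RNA of other cells in these libraries.

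**Figure D4:**
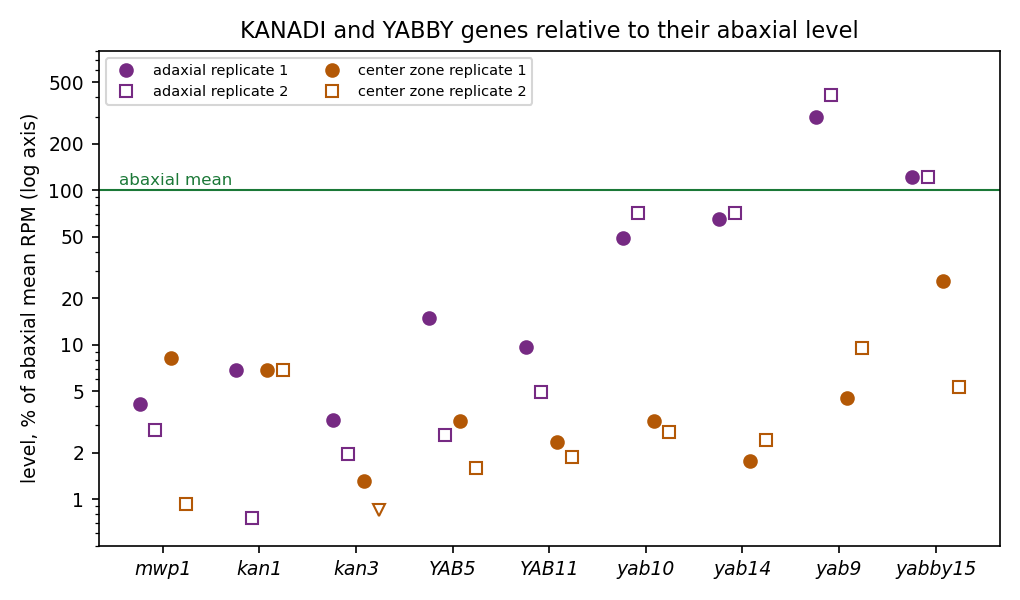
Level of 3 KANADI genes and 6 YABBY genes in the adaxial and center zone libraries, as percent of each gene's own abaxial mean (log axis, green line at 100%); the open triangle is the level of 3 counts for kan3, which had 0 counts. For mwp1 the center zone points stand at 8.25% and 0.937%, whereas kan1 is at 6.82% in both, and on the adaxial side the KANADI genes, YAB5 and YAB11 lie far below the other YABBY genes.

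The other KANADI genes with a name, kan1 (GRMZM2G056400) and kan3 (GRMZM2G175827), were likewise highest in both abaxial libraries. For kan1 the abaxial libraries had 12.9 and 13.5 RPM, the adaxial ones 0.9 and 0.1 RPM and both center zone ones 0.9 RPM. For kan3 the abaxial values were 19.4 and 11.2 RPM, the adaxial values 0.5 and 0.3 RPM and the center zone values 0.2 and 0.0 RPM. All 3 KANADI genes had both abaxial libraries above both adaxial ones, which was the case for 19.4% of the tested genes. The log2 fold change, abaxial over adaxial, was 4.64 for kan1 and 5.23 for kan3, beside a median of -0.00622 over all tested genes. The median of the 3 genes, 4.80, is the value of mwp1 itself. Yet 0 of the 3 passed the threshold in edgeR (adjusted p = 0.126 for kan1 and 0.125 for kan3). All 3 had an unadjusted edgeR p under 0.05, as 5.24% of the tested genes did. DESeq2 called all 3, as it did 1.08% of the tested genes. In the edgeR fit of the 4 leaf libraries alone, where 0.417% of genes passed, kan3 passed (adjusted p = 0.00194) and kan1 did not (0.0417).

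Against the center zone, 1 of the 3 KANADI genes was called higher on the abaxial side, where 4.42% of the tested genes were, while DESeq2 called all 3, as it did 26.9% of the tested genes. The gene called by edgeR was kan3, at 6.97 on the log2 scale (edgeR, standard error 0.997, adjusted p = 0.00455). The call was lost without either abaxial library (adjusted p = 0.0363 and 0.0227) or without either adaxial one (0.0157 and 0.0153), and in the fit of those 2 groups alone (0.0141). The value of kan1 was 4.02 (standard error 0.781, adjusted p = 0.0111). The median of the 3 genes, 4.55, is again the value of mwp1 itself, beside -0.0326 over all tested genes. All 3 had both abaxial libraries above both center zone ones, as had 31.0% of the tested genes.

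Reads of the 3 genes summed to 83.7 and 80.0 RPM in the abaxial libraries, to 3.6 and 1.9 RPM in the adaxial ones and to 5.5 and 1.4 RPM in the center zone. Of these reads mwp1 held 61.4% and 69.1% on the abaxial side. It held 61.1% and 78.9% on the adaxial side, and 80.0% and 35.7% in the center zone libraries, so that only the center zone pair differed widely. These are shares of reads with no correction for transcript length.

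Lists of genes drawn by symbol, only some of whose members are known to act with or against KANADI genes, showed unequal differences between the leaf sides. Among the LOB genes, IG1 and ial1 were called lower on the abaxial side (2 of the 3 genes of a list that also holds rs2, a MYB gene of the AS1 type), where 0.05% of the tested genes were. IG1, at -4.27 on the log2 scale (edgeR, adjusted p = 0.00625), came near mwp1 in size with the opposite sign. The calls of IG1 and ial1 (-3.14) were lost without any one of the 4 leaf libraries. Those fits leave 1 library on a side and called hardly any tested gene, so the loss says little of IG1 and ial1. Their log2 fold changes there lay between -4.34 and -4.19 for IG1 and between -3.26 and -3.02 for ial1. DESeq2 called both genes, as did the edgeR fit of the 4 leaf libraries alone, where 0.417% of genes passed. The HD-ZIP III gene rld2 had 102.6 and 88.6 RPM in the abaxial libraries and 276.5 and 177.4 RPM in the adaxial ones, a log2 fold change of -1.28 that was not called (adjusted p = 0.201). Neither of the 2 HD-ZIP III genes was called by edgeR, 1 had an unadjusted p under 0.05 and 1 was called by DESeq2, while of the 2 tested genes of the trans-acting siRNA pathway 0 were called by edgeR, 0 by DESeq2 and 0 had such an unadjusted p. Of 18 tested genes with an ARF symbol, 1 was called higher on the abaxial side, as were 0.0222% of the tested genes, and the list had a median of 0.16, beside -0.00622 over all tested genes. Of the 18, 6 had an unadjusted p under 0.05 and 3 were called by DESeq2. The gene called by edgeR was ARF11, with an auxin response factor symbol, at 2.78 (adjusted p = 0.0097). Its call was likewise lost in the fits without 1 leaf library, where its value lay between 2.76 and 2.80. It held in DESeq2 and in the fit of the 4 leaf libraries alone. Among the 8 YABBY genes, 0 were called between the leaf sides by edgeR, 5 had an unadjusted p under 0.05 and 3 were called by DESeq2. For each of these lists the background was 0.0723% of all tested genes called by edgeR, 5.24% with an unadjusted p under 0.05 and 1.08% called by DESeq2.

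Between the leaf sides, YABBY genes differed among themselves. YAB5 had 49.7 and 50.5 RPM in the abaxial libraries against 7.5 and 1.3 RPM in the adaxial ones, and YAB11 had 48.1 and 36.9 RPM against 4.1 and 2.1 RPM. By contrast, yab9 had 20.2 and 19.5 RPM on the abaxial side against 59.6 and 82.0 RPM on the adaxial side. The adaxial level was 49.0% to 71.7% of the abaxial mean for yab10 and yab14, and 122% for yabby15. Relative to the center zone, 4 of the 8 were called higher on the abaxial side, namely yab9, yab10, yab14 and YAB11, beside 4.42% of the tested genes, and DESeq2 called 6 of the 8 in either direction, beside 26.9%. The median over the list was 4.55, beside -0.0326 over all tested genes.

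Genes with a pattern most like that of mwp1 were sought by the Euclidean distance of log2(RPM + 1), centered on each gene's mean, over the 6 libraries. Among 17992 genes the median distance was 5.18, and 15 genes lay within 2. The distance of mwp1 itself from a flat profile was 5.1. The nearest genes were GRMZM2G070865 (1.25) and GRMZM2G378604 (1.35), both without a symbol, followed by gln2 (1.37), kan3 (1.49), GLK47 (1.65), YAB11 (1.70), YAB5 (1.78) and kan1 (1.94). The remaining named genes of the 10 with a symbol were TCP7 (2.11), MYB59 (2.15), thi2 (2.84) and cc7 (2.87). By this distance kan3 had rank 4 and kan1 rank 12 among all genes, but by Pearson correlation their ranks were 22 and 34, and without adaxial replicate 2 they were 9 and 23.

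GRMZM2G070865 came closest to the mwp1 profile, with 47.4 and 35.0 RPM in the abaxial libraries, 1.7 and 1.3 RPM in the adaxial ones and 1.3 and 1.0 RPM in the center zone ones. Its log2 fold change between the leaf sides, 4.73, was close to that of mwp1, but its standard error was 0.304 and it was called (adjusted p = 0.00623 from edgeR). That call was lost without any one of the 4 leaf libraries, where its log2 fold change lay between 4.48 and 4.95. Those fits leave 1 library on a side and called hardly any tested gene, so the loss says little of this gene. DESeq2 called it (adjusted p = 2.06e-34, 1.08% of genes passing). The edgeR fit of the 4 leaf libraries alone called it too (adjusted p = 0.000317, 0.417% of genes passing). Its center zone libraries lay close to each other, unlike those of mwp1.

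GLK47 (GRMZM2G060834) had 74.5 and 60.5 RPM in the abaxial libraries, 2.5 and 5.4 RPM in the adaxial ones and 1.9 and 1.2 RPM in the center zone ones. It was not called between the leaf sides (log2 fold change 4.02, adjusted p = 0.0312) and was called higher on the abaxial side than in the center zone (5.54, adjusted p = 0.000991). For gln2 the abaxial values were 73.1 and 74.1 RPM, the adaxial values 5.4 and 9.8 RPM and the center zone values 10.5 and 2.5 RPM, a split of the center zone pair in the same direction as in mwp1. Of the 12 genes, 11 were higher in center zone replicate 1 than in replicate 2, which the measure favors because it counts both libraries. Likewise, all 12 had both abaxial libraries above the other 4, as genes chosen for this pattern would.

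**Figure D5:**
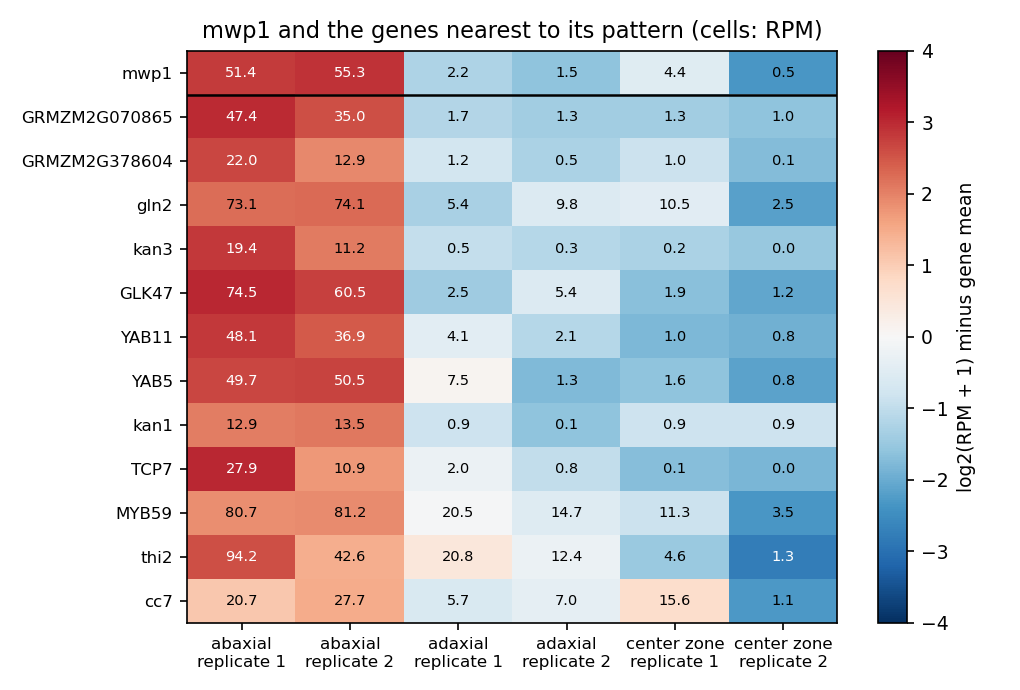
RPM of mwp1 (top) and of the 12 genes named for the most similar pattern (rows, nearest first) in each library (columns), colored by log2(RPM + 1) minus the gene's mean. Every row is highest in the abaxial columns, as the choice of genes favors, and 11 of the 12 genes below mwp1 are higher in center zone replicate 1 than in replicate 2, kan1 being at 0.9 RPM in both.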

How the data were processed

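The authors trimmed bases of low quality, aligned the reads with GSNAP (version not given in the sources used here) to B73 RefGen_V3, and deposited raw counts of uniquely aligned reads per gene for each library. The deposited RPM values divide these by the number of such reads in the library, are rounded to 1 decimal and carry no length correction, because linearly amplified RNA is read mainly from the 3' end. Genes averaging 2 RPM or more in any region were fitted together over the 3 groups with edgeR 4.0.16 in R 4.3.3 (TMM, robust quasi-likelihood F test). They were called at a Benjamini-Hochberg adjusted p under 0.01. The filter and the threshold are those of the study, but the test is not, since the study used DESeq. A standard error here is the size of the log2 fold change over the root of its F value. The edgeR fit was first run on simulated data in which each gene had the same spread in all regions. Those data therefore do not cover a gene whose spread differs between regions. With 2 libraries a region, edgeR and DESeq2 p-values set a fold change against the spread between these libraries. That spread is pooled over the regions fitted and moderated by other genes. A listed 0 allows up to 0.112 to 0.196 RPM (3 counts, by library).

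Settings varied were DESeq2 1.42.0 with independent filtering off, its size factors, unscaled library sizes, the low-level filter (absent, or 10 RPM), a threshold of 0.05, a replicate block, fits of the compared groups alone, limma-trend (version 3.58.1, with a prior count of 2) and single libraries left out, where a lone library is assumed to vary like the rest. The gene, the lists and the naming rules were chosen with earlier results of these data known. Genes could be named as list members, as the 10 nearest with a symbol and the 2 nearest without, or as the 5 with a symbol at either end of the level window, and the locus neighbors are named besides.

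Symbols come from RefSeq's table for Zm-B73-REFERENCE-NAM-5.0, which matched 18775 identifiers and gave 2647 a symbol; no coordinates were taken from it. The symbols phb1 to phb3 stand for prohibitin genes in maize and were kept apart from the HD-ZIP III list, and the lower-case arf1 may not be an auxin response factor. KANADI proteins were not compared by sequence.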

Additional observations from a re-analysis of the deposited data

How the results depend on the processing

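The fitted difference of mwp1 between the leaf sides ran between 4.61 and 5.01 when each library was left out. It was called with DESeq2 (4.79), in the 4 leaf libraries alone (4.80) and without either center zone library, and in no other setting run (adjusted p up to 1). Against the center zone it ran between 3.75 and 6.73 without single libraries, and it was called with DESeq2 (4.57), limma-trend (5.11), a threshold of 0.05 (4.55) and without either center zone library. Adaxial against center zone ran between -1.05 and 1.94 without single libraries, and the sign turned with the replicate block (0.01), with limma-trend (0.36) and without center zone replicate 1 (1.94). The cause of these shifts was not tested, beyond the libraries left out.

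The rank of mwp1 among genes of similar level stayed at 1 for windows of 1.5-fold and 3-fold, for levels from the leaf or the abaxial libraries and for the ratio of mean RPM + 1, and ran between 1 and 14 without single leaf libraries. With TMM scaling or a single abaxial library as base, mwp1 stood at 7.5% to 8.56% of its abaxial level in center zone replicate 1. It stood at 0.904% to 0.973% in center zone replicate 2, 3.98% to 4.28% in adaxial replicate 1 and 2.71% to 3.1% in adaxial replicate 2. Of the 10 nearest genes with a symbol, 7 to 10 were shared under other measures of likeness. Of the 50 nearest genes of any kind, 14 were shared under Pearson correlation and 34 to 47 in the other settings. Of the alternative values for 19 other genes, 456 kept their side of the threshold, 41 lost a call, 73 gained one and 0 reversed.

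Counts of called genes depended on the setting. Between the leaf sides (13), DESeq2 gave 195, no filter 49, a threshold of 0.05 gave 44, only the groups compared 75, and single libraries left out 0 to 66. The count was 0 in edgeR without abaxial replicate 2, adaxial replicate 1 or adaxial replicate 2, where 594, 1877 and 693 genes had an unadjusted p under 0.05, and 66 without center zone replicate 2. For abaxial against center zone (1915), DESeq2 gave 4847, a threshold of 0.05 gave 5321, only the groups compared 1258, and single libraries left out 218 (without abaxial replicate 1) to 3454 (without center zone replicate 1). For adaxial against center zone (2157), these were 5125, 5694, 1067 and 212 (without adaxial replicate 2) to 3765 (without center zone replicate 1). Library size alone gave 640 genes higher and 1367 lower for abaxial against center zone, beside 795 and 1120 with TMM, and 793 and 1551 for adaxial against center zone, beside 1009 and 1148.

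The replicate numbers share no stated animal, plant or batch, and deviations of same-numbered libraries correlated at 0.207, -0.075 and -0.0956, so they are not taken as pairs. The replicate block left 0 called genes between the leaf sides (866 had an unadjusted edgeR p under 0.05), 953 and 991 in the center zone comparisons, and mwp1 gave 4.88 between the leaf sides and 4.89 for abaxial against center zone. With 12 counts in center zone replicate 2, the depth limits the precision of mwp1 there, and 2 libraries a region limit every test.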
